A study of Mus musculus with 10 samples.

Results

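Genes that mark enteric neurons and glia were followed on expression arrays of mice with a cystic fibrosis knockout and of controls. The 8 genes were Vip, Nos1, Ret, Chat, Tac1, Uchl1, Elavl4 and S100b. Every probe set that the platform annotation assigns to one of these symbols was read, which gave 16 probe sets for 8 of the 18193 genes on the array with a single symbol. The animals were F2 mice of a C57BL/6 by BALB/c cross (B6xBALB). The groups were 5 cystic fibrosis knockouts with the title code H, 3 cystic fibrosis knockouts with the code L, and 2 controls with the code D; the labels spell out neither these codes nor the knockout allele, nor age or treatment. Each title holds an M or an F and a number, which lies in a higher range for 5 knockouts and in a lower range for 3 knockouts and both controls. The design text gives more animals than the 10 samples used here, and the others were not analysed here.

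The enteric nervous system is a network of neurons and glia in the gut wall, with 1 plexus between the muscle layers and another beneath the mucosa. Vasoactive intestinal peptide, from Vip, is a transmitter of inhibitory motor neurons and of secretomotor neurons; on epithelial cells it raises cyclic AMP, which opens the chloride channel CFTR. Neuronal nitric oxide synthase (Nos1) makes the other main inhibitory transmitter and is found together with Vip in many inhibitory motor neurons. Choline acetyltransferase (Chat) and the tachykinin precursor Tac1, which yields substance P and neurokinin A, mark excitatory neurons. Ret is the receptor through which GDNF guides the precursors of these neurons into the gut. Uchl1 (PGP9.5, a deubiquitinase) and Elavl4 (HuD, an RNA-binding protein) are general neuronal markers, and the calcium-binding protein S100b marks glia.

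The source label gives the tissue as whole right lung, while the series title names the intestine. By mean intensity, 10 of 14 small intestine epithelium genes on the array were among the brightest 5% of genes, against 2 of 16 lung epithelium genes. Cftr, the gene of cystic fibrosis, read between 19.7 and 35.4 in the 8 knockouts, against 131 and 137 in the controls. Array medians lay between 18.4 and 18.9, and values near that level lie close to background. Between knockouts and controls 588 of 13644 genes tested passed the threshold of an adjusted p of 0.05 (4.31%; 1.52% higher and 2.79% lower), and the median log2 difference over all genes was -0.0047. These counts depended on single arrays, with 0 genes past the threshold without control replicate 1, 57 without control replicate 2, 121 without knockout H replicate 4, 191 without knockout L replicate 3 and 263 without knockout H replicate 5. Without covariates 1366 passed, 626 of them higher. Only 2 controls were measured, and nothing beyond the title numbers says that the samples are separate animals, so the p-values measure the spread between these samples.

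Of the 8 genes, Vip and Tac1 were read well above the array medians, and the promoters of these 2 neuropeptide genes are shown. Between knockouts and controls Vip passed the threshold and Tac1 did not. Whether the differences of the 2 genes themselves differ was not tested, so different behaviour is not shown. The windows run from 250 to 26 bases before the start given in the RefSeq promoter table (build GRCm38.p6, plus strand), chr10:5638968-5639192 for Vip and chr6:7554811-7555035 for Tac1. Capitals mark TGACG or its reverse complement CGTCA, the half-site of the cyclic AMP response element.
Vip: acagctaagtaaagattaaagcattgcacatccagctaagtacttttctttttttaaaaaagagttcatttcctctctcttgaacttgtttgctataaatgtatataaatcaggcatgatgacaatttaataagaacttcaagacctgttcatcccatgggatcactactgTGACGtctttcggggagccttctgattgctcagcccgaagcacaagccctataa
Tac1: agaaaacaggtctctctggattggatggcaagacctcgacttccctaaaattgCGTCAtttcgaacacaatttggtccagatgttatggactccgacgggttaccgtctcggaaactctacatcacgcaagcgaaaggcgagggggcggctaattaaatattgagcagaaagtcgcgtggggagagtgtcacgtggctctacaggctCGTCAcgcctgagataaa
The Vip window holds TGACG once, with its first base at -79 from the start, and there it extends to TGACGTC. The Tac1 window holds CGTCA at -197 and -43, without the extension. On either strand TGACG was present in 15.3% of the 32851 windows of the same length in the table and TGACGTC in 2.16%. Of the 7 genes with an entry, 5 held TGACG (Chat, Elavl4, Nos1, Tac1 and Vip) and 1 (Vip) held TGACGTC, which overlaps TGACG. A gene was counted if any window under its symbol matched, while the percentages are shares of single windows. The gene counts therefore cannot be read against those percentages. The full palindrome TGACGTCA was in none of the 7 and in 1.202% of all windows. These are matches of letters and do not show that a factor binds. Ret is named here without a promoter.

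Vip rose in the knockouts. Its single probe set, 1428664_at, read 347, 406, 233, 138 and 294 in knockout H replicates 1 to 5, 275, 340 and 207 in knockout L replicates 1 to 3, and 50.7 and 93.1 in the controls. Every knockout lay above both controls, with knockout H replicate 4 lowest and control replicate 2 the higher control. Group means were 280 ± 86.0 in the 8 knockouts and 71.9 ± 29.996 in the 2 controls (SD). In the fit over all genes the log2 difference was 1.43 ± 0.28 (SE; limma adjusted p = 0.0285), a 2.69-fold rise with a 95% interval of 1.73 to 4.21. By p Vip ranked 334 of 13644 genes and by the size of a higher difference 33. The knockouts lay all above or all below both controls for 21.8% of the genes tested, so this separation by itself was common in these arrays. Small intestine epithelium genes, taken as a mean, separated the same groups in the other direction. The mean of 14 such genes, as log2 deviation from the mean of all arrays, lay between -0.21 and 0.18 in the knockouts, against 0.25 and 0.27 in the controls. Their summed intensity was 31646 to 39461 in the knockouts, against 46826 and 48050 in the controls. Of the 14 genes 4 were called lower, against 2.79% of all genes tested, and 4 others had log2 differences above 0. The part of this shift in the rise of Vip was not tested. In bulk tissue, more Vip neurons and more Vip RNA per neuron cannot be told apart.

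The call of Vip rested on few arrays. Both controls carry numbers of the lower range, where the knockouts with Vip at 138, 207 and 294 stood against 50.7 and 93.1. In that range alone the log2 difference was 1.49 ± 0.16 (SE; limma adjusted p = 0.00566). The 5 knockouts of the upper range read 320 ± 67.1 and the 3 of the lower range 213 ± 77.9 (SD). Without control replicate 1 the difference was 1.19 (limma adjusted p = 0.282), without control replicate 2 it was 1.63 (0.118), and without knockout H replicate 5, L replicate 3 or H replicate 4 it was 1.22, 1.36 and 1.62 (0.118, 0.0826 and 0.0501).

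**Figure D1:**
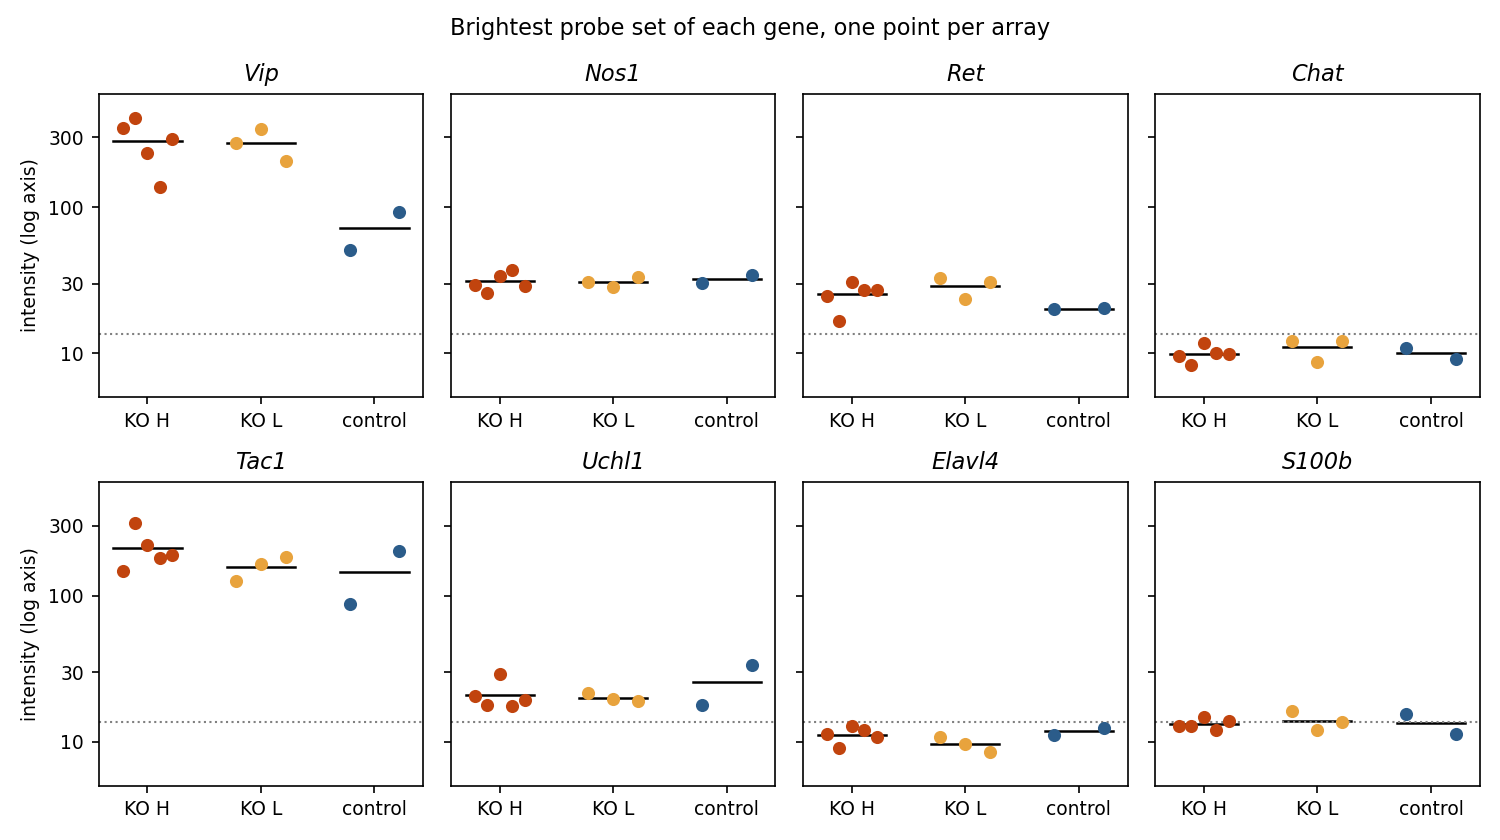
Intensity of the brightest probe set of each gene on a log axis, with 1 point per array, knockout H (5), knockout L (3) and control (2) from left to right, group means as bars and the level used as filter, 13.6, as a dotted line. In the Vip panel all knockouts lie above both controls, while in the other panels the range of the 8 knockouts overlaps that of the controls.

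Tac1, the other peptide gene with a clear signal, did not pass. Probe set 1416783_at read 147, 316, 221, 180 and 188 in knockout H replicates 1 to 5, 126, 164 and 182 in knockout L replicates 1 to 3, and 87.6 and 201 in the controls. The controls enclosed 6 of the 8 knockouts, with knockout H replicates 2 and 3 above both. The log2 difference was 0.47 ± 0.35 (SE; limma adjusted p = 0.516), with a 95% interval of -0.31 to 1.26. It was -0.034 without control replicate 1 and 0.90 without control replicate 2 (limma adjusted p = 0.985 and 0.398). Tac1 and Cftr lie on the same chromosome, with their start sites 10.6 megabases apart on GRCm38.p6, and the strain alleles there are not given. A second Tac1 probe set, 1431883_at, read no more than 12.3 on any array.

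Nos1 did not pass. Its brightest probe set, 1429887_at, read 29.3, 25.9, 33.6, 37.0 and 29.0 in knockout H replicates 1 to 5, 30.6, 28.4 and 33.5 in knockout L replicates 1 to 3, and 30.2 and 34.2 in the controls. The log2 difference was 0.02 ± 0.10 (SE; limma adjusted p = 0.932), with a 95% interval of -0.20 to 0.25, so a fold above 1.19 lies outside it on the log2(intensity + 16) scale. The other 3 Nos1 probe sets were dimmer, with means over all arrays of 18.8, 14.8 and 10.7, and had log2 differences of 0.04, -0.06 and 0.002.

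Ret, read by 1421359_at, was 24.5, 16.7, 30.7, 27.1 and 27.1 in knockout H replicates 1 to 5, 32.7, 23.3 and 30.9 in knockout L replicates 1 to 3, and 19.9 and 20.4 in the controls. Of the 8 knockouts, 7 lay above both controls and knockout H replicate 2 below both. The log2 difference of 0.30 ± 0.15 (SE) did not pass (limma adjusted p = 0.333). It was 0.41 with the lung epithelium level as a covariate, where it passed (limma adjusted p = 0.034). In the other 22 of 23 alternative settings it did not pass. The second Ret probe set, 1436359_at, differed by 0.11 and had 3 knockouts above both controls.

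Uchl1 pointed the other way without passing. Probe set 1448260_at read 20.7, 17.9, 29.0, 17.6 and 19.4 in knockout H replicates 1 to 5, 21.4, 19.5 and 19.0 in knockout L replicates 1 to 3, and 17.9 and 33.7 in the controls. The highest array was control replicate 2, and knockout H replicate 3 came next. The log2 difference was -0.21 ± 0.14 (SE; limma adjusted p = 0.471), and without control replicate 2 it was 0.01.

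Chat, Elavl4 and S100b stayed below the filter on dim genes, a mean over all arrays above an intensity of 13.6, and were not tested there. In a fit of every probe set on its own, where the filter lies lower, Elavl4 and S100b did not pass (limma adjusted p = 0.799 and 0.978). Chat (1440070_at) read 8.25 to 12.1 in the knockouts and 9.15 to 10.8 in the controls. The brightest of 3 Elavl4 probe sets read 8.5 to 12.9 in the knockouts and 11.1 to 12.4 in the controls. The brighter of 2 S100b probe sets averaged 13.5 over the arrays, just under the filter, and read 12.0 to 16.1 in the knockouts and 11.3 to 15.5 in the controls. The range of the 8 knockouts overlapped that of the controls for these genes, and at this signal a change in them could be missed. Of the 5 genes that were tested 1 rose, none fell and 4 did not pass, against 4.31% of all genes called, 1.52% higher and 2.79% lower. Of the 16 probe sets 1, that of Vip, had all knockouts above or below both controls, against 14.6% of all 45037 probe sets.

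None of these genes passed between the H and L knockouts. Vip averaged 284 ± 103 in knockout H (SD, n = 5) and 274 ± 66.7 in knockout L (SD, n = 3), and the log2 difference H minus L was -0.21 ± 0.27 (SE; limma adjusted p = 0.9998), with a 95% interval of -0.82 to 0.41. For the other 4 genes tested it lay between -0.19 (Ret) and 0.23 (Tac1). None of the 13644 genes passed between H and L in limma (0.00%), with 303 at an unadjusted p under 0.05. Against the controls, which both comparisons share, Vip differed by 1.38 ± 0.30 in knockout H (SE; limma adjusted p = 0.0573; 2.43% of genes passed, 0.652% higher and 1.77% lower) and by 1.58 ± 0.35 in knockout L (0.0953; 0.344% of genes passed, 0.0513% higher and 0.293% lower). Neither passed over all genes in these smaller contrasts, though 4 of 12 settings other than leaving out an array called Vip in knockout H and 3 of 12 in knockout L. With 1 array left out, Vip was called in 1 of 10 fits for knockout H and in none of 10 for knockout L. Ret differed by 0.25 in knockout H and 0.44 in knockout L, Tac1 by 0.53 and 0.30, Uchl1 by -0.23 and -0.15 and Nos1 by 0.02 in both, and none of these passed.

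**Figure D2:**
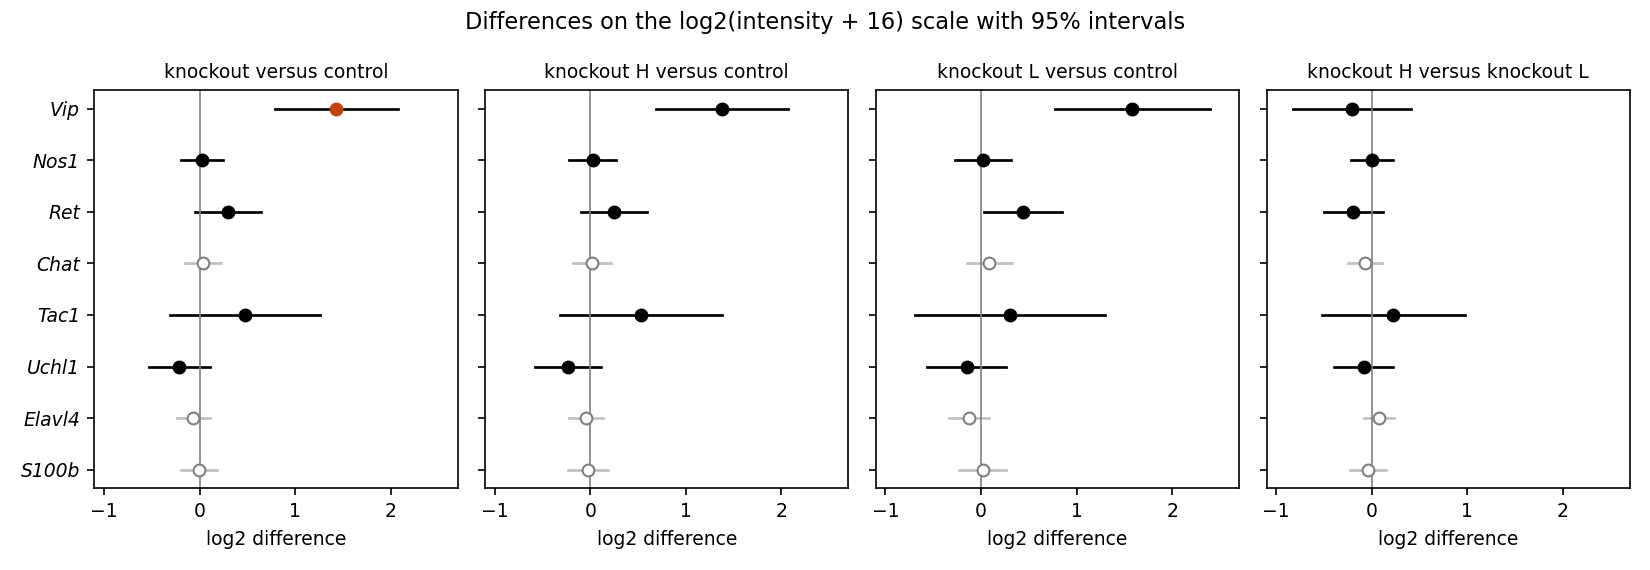
Log2 differences on the log2(intensity + 16) scale with 95% intervals for the 8 genes in 4 comparisons. The filled red point, Vip in knockout versus control at 1.43, passed the threshold; black points were tested and did not pass, and open grey points are the 3 genes under the filter.

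Whether Vip moved with the other neuronal genes was asked in 2 ways. The first took the ratio of Vip to each other gene within an array, on the log2(intensity + 16) scale, as a description. Each of the 7 ratios was higher in every knockout than in either control. Vip over Tac1 averaged 0.50 ± 0.53 in the 8 knockouts and -0.81 ± 0.25 in the controls (SD, n = 8 and 2), a difference of 1.32. Vip over Uchl1 averaged 2.96 ± 0.48 in the 8 knockouts and 1.06 ± 0.11 in the controls, a difference of 1.91. The differences of the 7 ratios ran from 1.32 to 1.91, and within the lower number range from 0.95 to 1.61. The ratios were formed after Vip had been seen above both controls in all knockouts and all share Vip. They restate its difference over genes that varied less, and no test is drawn from them.

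The second way took the 8 knockouts alone, since knockouts and controls differ in Vip. Across them Vip and Tac1 had a Pearson r of 0.19 (exact permutation p = 0.64, adjusted p = 0.823 over 9 relations) and a Spearman rho of 0.07 (exact permutation p = 0.882, adjusted p = 0.882). Without the knockouts farthest from the median of Vip, H replicates 2 and 4, r was -0.48. For Vip and Uchl1 r was -0.01 and rho 0.12 (exact permutation p = 0.976 and 0.793; adjusted p = 0.976 and 0.882). For Ret, Chat, Elavl4 and S100b r was -0.60, -0.54, -0.38 and 0.03, with exact permutation p-values of 0.117, 0.161, 0.364 and 0.946 (adjusted p = 0.350, 0.362, 0.546 and 0.976). Their rho was -0.67, -0.76, -0.29 and -0.07, with exact permutation p-values of 0.0831, 0.0368, 0.501 and 0.882 (adjusted p = 0.150, 0.110, 0.751 and 0.882). Without knockout H replicates 2 and 4 these r were -0.81, -0.85, 0.14 and -0.48, and that of Uchl1 was -0.32.

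Nos1 ran against Vip. The Nos1 probe set 1429887_at was lowest (25.9) in knockout H replicate 2, where Vip was highest (406), and highest (37.0) in knockout H replicate 4, where Vip was lowest (138). Over the 8 knockouts r was -0.97 (exact permutation p = 0.000198, adjusted p = 0.00179) and rho -0.90 (exact permutation p = 0.00456, adjusted p = 0.0411). Without those 2 knockouts r was -0.93, and centred within each number range it was -0.98; no r was taken within a range, since the larger one holds 5 knockouts. The whole span of Nos1 was 25.9 to 37.0, and the other 3 Nos1 probe sets gave r of -0.25, -0.43 and 0.48, so the relation was seen with 1 of 4 probe sets. In the controls low Vip (50.7 and 93.1) did not come with Nos1 above the knockouts' range (30.2 and 34.2).

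**Figure D3:**
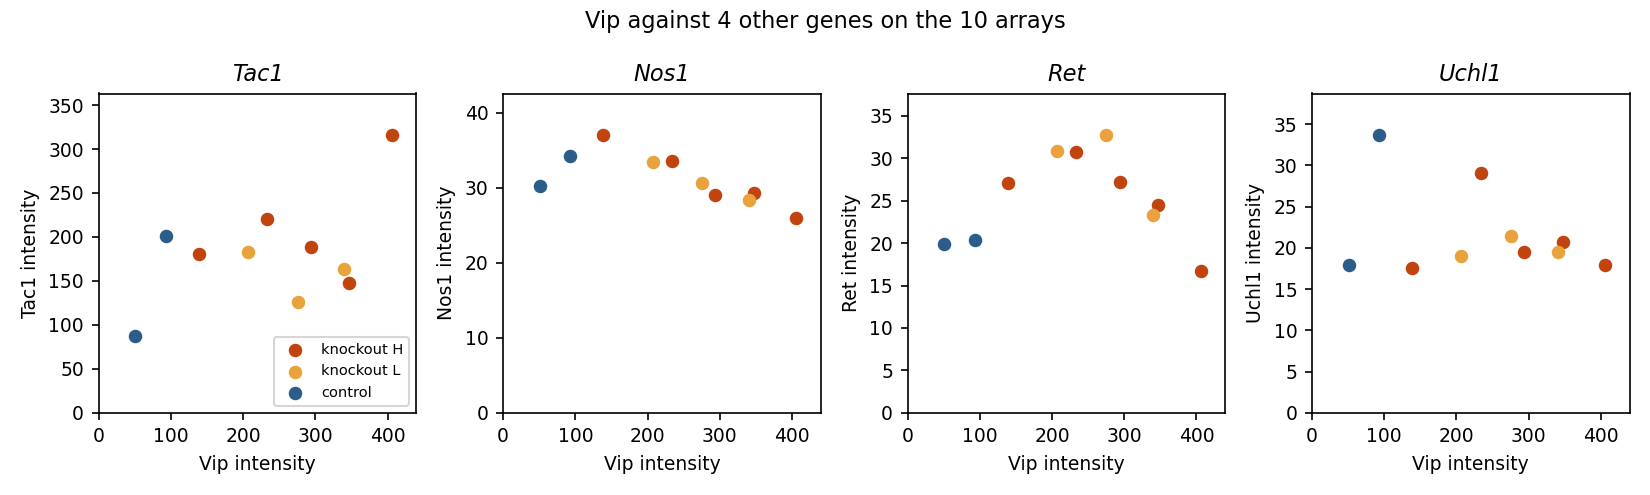
Intensity of Tac1, Nos1, Ret and Uchl1 (y axes, linear from 0) against that of Vip (x axis) on the 10 arrays, coloured by group. Across the knockouts Nos1 is lower where Vip is higher (25.9 at 406 and 37.0 at 138), and the controls at 50.7 and 93.1 stand apart from that line.

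Smooth muscle signal varied between the arrays and moved with several of these genes. The mean of 18 intestinal smooth muscle genes, as log2 deviation from the mean of all arrays, ranged from -0.42 to 0.49 in the knockouts and was -0.54 and 0.69 in the controls. It was highest in control replicate 2 and knockout H replicate 3, the 2 arrays highest in Uchl1. The 10 relations with smooth muscle over the 8 knockouts were adjusted together. Apart from that of Vip, 1 of the 9 relations above, they were added after the values had been seen. Their p-values therefore describe these arrays and give no support of their own. Ret (r = 0.85, exact permutation p = 0.00501, adjusted p = 0.0167; rho = 0.88, exact permutation p = 0.00724, adjusted p = 0.0362) and Chat (r = 0.94, exact permutation p = 0.00104, adjusted p = 0.00595; rho = 0.90, exact permutation p = 0.00456, adjusted p = 0.0362) were higher in knockouts with more smooth muscle signal, Chat at levels under the filter. So was the mean of 25 other neuronal genes (r = 0.91, exact permutation p = 0.00119, adjusted p = 0.00595; rho = 0.76, exact permutation p = 0.0368, adjusted p = 0.0735). Without knockout H replicate 3 and L replicate 3, the 2 farthest from the median of smooth muscle, these r were 0.89, 0.96 and 0.82. Vip had r = -0.44 (exact permutation p = 0.276, adjusted p = 0.345 over the 10 relations and 0.497 over the 9). Its rho was -0.81 (exact permutation p = 0.0218, adjusted p = 0.0544 and 0.098 in the same order). Centred within each number range, r was 0.88 for Ret, 0.96 for Chat, 0.91 for the 25 genes and -0.57 for Vip. Uchl1 (0.71), S100b (0.72), Nos1 (0.57), Elavl4 (0.27), Tac1 (-0.28) and the glia list (0.74) had r that did not pass (smallest adjusted exact permutation p = 0.0603). With the smooth muscle mean as a covariate, the log2 difference of Vip was 1.42 (limma adjusted p = 0.0299). The controls lay at both ends of that mean (-0.54 and 0.69), so this fit says little on its part in the rise of Vip. The part of smooth muscle in the values of Ret and Chat was not tested over the knockouts alone.

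Tuft cell genes varied over the same knockouts. The mean of 10 such genes was -0.31, -0.36, 0.45, 0.04 and 0.08 in knockout H replicates 1 to 5, 0.38, -0.33 and 0.21 in knockout L replicates 1 to 3, and -0.12 and -0.05 in the controls. It was highest in knockout H replicate 3 and L replicates 1 and 3, the knockouts highest in smooth muscle and in Chat, a gene that tuft cells also express. All 10 tuft genes had a negative r with Vip over the 8 knockouts (median -0.51). So had all 18 smooth muscle genes (median -0.43) and 7301 of the 13643 other genes tested. Of 15 lung epithelium genes 14 had a positive r (median 0.59). The part of tuft cells in these values was not tested.

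Lung transcripts also varied between the arrays. The mean of 15 lung epithelium genes ranged from -0.51 to 0.88 in the knockouts and was -0.18 and -0.32 in the controls, and their summed intensity from 4468 to 14410 in the knockouts and was 5451 and 5774 in the controls. Knockout H replicates 2 (0.88) and 5 (0.59) were highest. Over the 8 knockouts Vip had r = 0.64 (exact permutation p = 0.0828, adjusted p = 0.350) and rho = 0.69 (exact permutation p = 0.0694, adjusted p = 0.150) with this mean, 0.64 without knockout H replicates 2 and 4 and 0.84 centred within each number range. With the lung mean as a covariate Vip differed by 1.26 (limma adjusted p = 0.0135), and without knockout H replicates 2 and 5 by 1.18 (limma adjusted p = 0.0949).

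**Figure D4:**
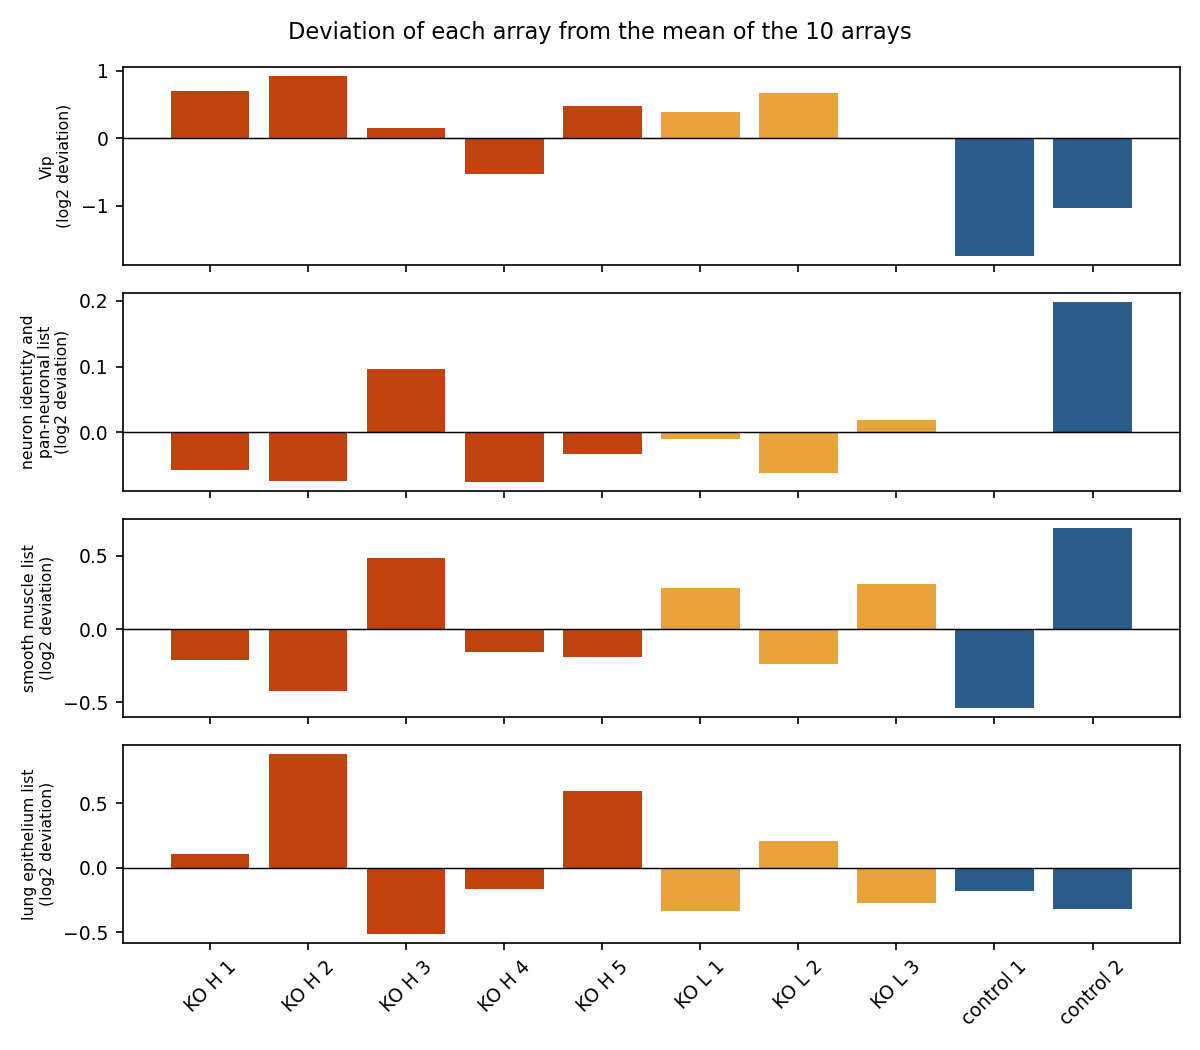
Deviation of each array from the mean of the 10 arrays on the log2 scale, for Vip and for the mean of the neuron identity, smooth muscle and lung epithelium lists, with knockout H left, knockout L next and controls right. The neuron list is highest in control replicate 2 (0.20) and knockout H replicate 3 (0.10), where smooth muscle is also highest (0.69 and 0.49), and Vip does not share that order.

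Genes beyond the 8 were read from lists chosen by role. Of 38 general neuronal and neuron identity genes 25 were tested, and none passed. Over all genes 4.31% were called, so no call in a list of this size says little. The 25 genes had a median log2 difference of -0.14, with 18 values below 0 and 7 above, against a median of -0.0047 and 48.7% above 0 over all genes. As the mean of the list, control replicate 1 (-0.0015) lay within the knockouts (-0.075 to 0.096) and control replicate 2 (0.20) above them. Control replicate 2 was also highest in smooth muscle (0.69), and the part of smooth muscle in these differences was not tested. The 4 with the smallest p were the granin Scg2 (-0.33), the G protein subunit Gng3 (-0.21), the stathmin Stmn3 (-0.39) and the reticulon Rtn1 (-0.19), with limma adjusted p-values of 0.128 to 0.171. The neuron identity factors Phox2a (0.06) and Hand2 (-0.34) did not pass either. Over the 8 knockouts 8 of the 25 had a positive r with Vip and 17 a negative one (median -0.18, range -0.75 for Map1b to 0.86 for Elavl3, over all genes median -0.05).

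Of 24 transmitter and neuropeptide genes 15 were tested and none passed (median -0.01, 7 values above 0 and 8 below), against 4.31% of all genes called. Npy, neuropeptide Y, averaged 70.7 ± 21.5 in the knockouts and 31.5 ± 3.50 in the controls (SD). Its log2 difference of 0.64 had a limma adjusted p of 0.156, and its r with Vip over the 8 knockouts was 0.79. Sst, somatostatin, which endocrine cells also make, averaged 159 ± 26.3 in the knockouts and 301 ± 88.3 in the controls, a log2 difference of -0.82 (limma adjusted p = 0.0689). Calretinin, Calb2 (-0.32), and dopamine beta-hydroxylase, Dbh (0.26), followed with limma adjusted p-values of 0.123 and 0.158. All 8 knockouts lay above both controls for Npy and below both for Sst and Calb2, 3 of the 15 genes tested, against 21.8% of all genes separated in either direction.

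None of the receptors passed. Of 15 receptors and effectors of these transmitters 13 were tested (median 0.04), and 4.31% of all genes were called. The 4 with the smallest p were the neurokinin receptor Tacr2 (-0.11), the VIP receptor of epithelium Vipr1 (-0.23), the guanylate cyclase subunit Gucy1a1 (0.24) and the second VIP receptor Vipr2 (0.08), with limma adjusted p-values of 0.465 to 0.684. Vipr1 averaged 124 ± 23.1 in the knockouts and 147 ± 3.45 in the controls (SD). Of 13 genes of the Ret ligand and endothelin pathways 10 were tested and none passed (median -0.08), against the same 4.31%. Gdnf, the ligand of Ret, averaged 17.3 ± 2.03 in the knockouts and 13.2 ± 0.81 in the controls, a log2 difference of 0.20 (limma adjusted p = 0.27), and the related ligand Nrtn (-0.15), the co-receptor Gfra3 (-0.09) and the adaptor Grb10 (0.10) followed.

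Glia genes gave no call either. Of 24 on the list 16 were tested and none passed (median -0.06, 12 values below 0 and 4 above), against 4.31% of all genes called. As the mean of the list, the controls (-0.055 and 0.089) enclosed the knockouts (-0.038 to 0.054). The ectonucleotidase Entpd2 (-0.39), the neuregulin receptor Erbb3 (-0.43), which epithelium also expresses, the matrix protein Postn (0.44) and the chaperone Cryab (0.30) had the smallest p, with limma adjusted p-values of 0.137 to 0.53. The glia factor Sox10 averaged 30.7 ± 3.70 in the knockouts and 35.2 ± 6.65 in the controls (-0.02), and Gfap 14.0 ± 1.19 and 15.8 ± 0.90 (-0.07).

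**Figure D5:**
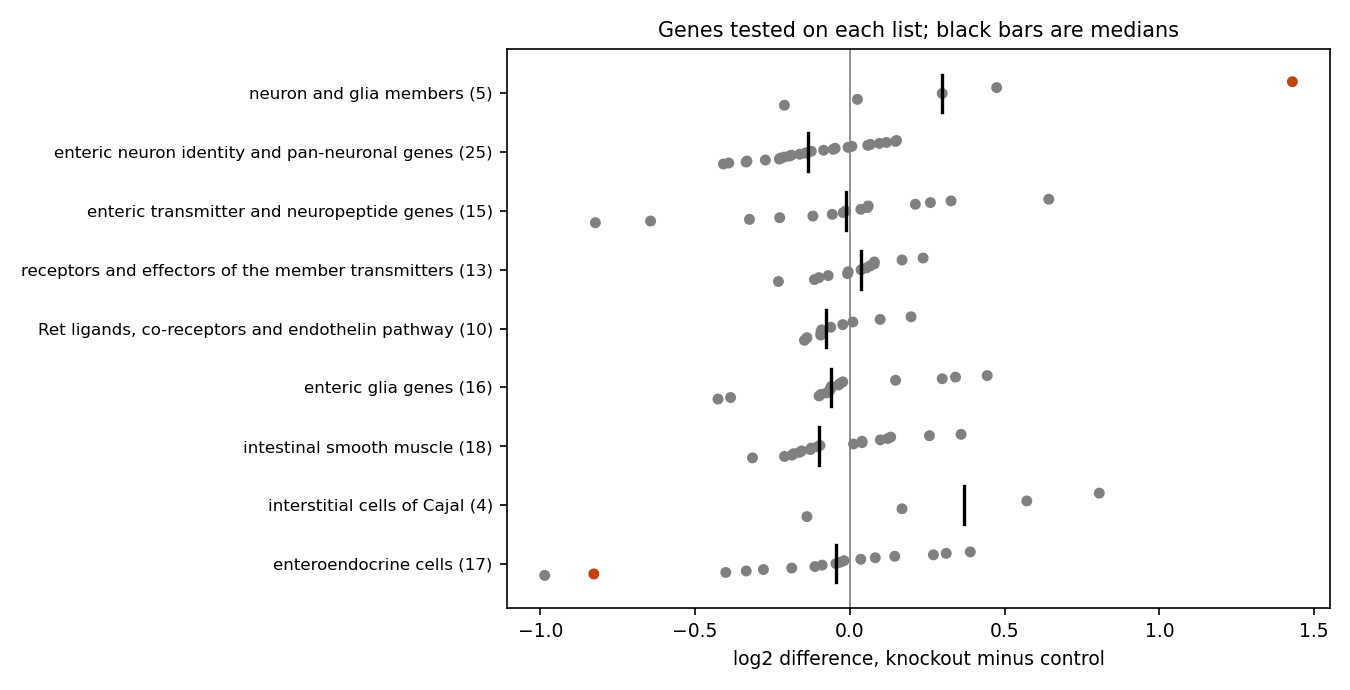
Log2 difference, knockout minus control, of each gene tested on 9 lists, with the number tested in brackets and the median as a black bar. Red points passed the threshold: Vip at 1.43 among the 8 genes and Nts at -0.83 among the enteroendocrine genes.

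Secretion genes on which VIP signalling acts were read as well. Of 11 tested, Cftr, the gene of cystic fibrosis, fell by 1.91 on the log2 scale (limma adjusted p = 0.00528). Its fall goes with the knockout itself and says nothing about VIP signalling. The other 10 did not pass, against 4.31% of all genes called. The potassium channel subunit Kcne3 averaged 561 ± 108 in the knockouts and 299 ± 88.3 in the controls (SD), a log2 difference of 0.90 (limma adjusted p = 0.0689). The chloride importer Slc12a2 averaged 868 ± 63.4 and 667 ± 34.8 in the same order (0.33, limma adjusted p = 0.0951). The bicarbonate importer Slc4a4 (0.70, limma adjusted p = 0.191) and the exchanger Slc26a6 (-0.58, 0.208) did not pass. All 8 knockouts lay above both controls for Kcne3, Slc12a2 and Slc4a4, and below both for Cftr, Slc26a6 and the exchanger Slc26a3 (-0.35, limma adjusted p = 0.397), while 21.8% of all genes were separated in one direction or the other.

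The 6 genes whose pattern was most like that of Vip were taken by Pearson r over the 8 knockouts among the 13643 other genes tested, as a description with no test. They were Zfp24, a zinc finger protein (0.98), Speer4f1 (0.96), Rilpl1 (0.96), the RNA-binding protein Fxr1 (0.96), the adhesion molecule Alcam (0.95) and the selenoprotein Selenof (0.95). None is on the neuron or glia lists, but those lists hold only 25 and 16 of the 13644 genes tested, so their absence from the top 6 says little. The log2 differences of the 6 genes between knockout and control, -0.07 to 0.34, did not pass (limma adjusted p 0.0576 for Selenof and 0.142 to 0.895 for the other 5). Elavl3, an RNA-binding protein of the Elavl4 family and the neuronal gene most like Vip by r, ranked 59, and Npy ranked 200.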

How the data were processed

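Total RNA of 10 samples was read on oligonucleotide arrays of 45101 probe sets. The deposited values are 1 linear intensity for each probe set on each array. How the authors summarized and normalized them is not given in the sources used here. The medians of the arrays (18.4 to 18.9) were alike, and no further normalization was applied. Of 45037 probe sets left after 64 array controls, 34945 have 1 gene symbol in the platform annotation (dated; 34741 symbols were looked up by gene identifier with the RefSeq list of GRCm38.p6), 932 several and 9160 none, and only the first were named. Per gene the probe set with the highest mean was used. Dim genes, the lowest 25% of the 18193 by mean log2 value (up to 4.88, an intensity of 13.6), were dropped, which left 13644. Values were log2(intensity + 16), which understates differences of dim genes.

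Differences were fitted with limma 3.58.1 (lmFit, eBayes; R 4.3.3) with number range and letter as covariates and Benjamini-Hochberg adjustment at 0.05 over all genes tested, in 2 groups (knockout versus control) and in 3 groups sharing 1 spread (H, L and control); the script was tested on simulated data. With the number range as covariate, knockout versus control rests mainly on the 3 knockouts and 2 controls of the lower range. Fold changes come from these fits, group means are plain means of intensities. Relations over the knockouts were tested by exact permutation of all 40320 pairings, two-sided, with scipy 1.17.1; plots used matplotlib 3.10.9. Named were the 8 genes, Cftr, of each list of neuronal, glial, receptor, Ret pathway and secretion genes those past the threshold and the 4 with the smallest p, of the lists of other cell types those past it and the leading few, and the 6 most like Vip; Phox2a, Hand2, Sox10, Gfap, Map1b and Elavl3 were named after their values were seen. The 8 genes and the lists were chosen with earlier results of these data known. Alternatives covered the pseudocount, normalization, filter, probe sets, covariates, eBayes settings, number range and each array left out.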

Additional observations from a re-analysis of the deposited data

Results flagged for a closer look

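Within the 5 knockout H arrays each of the 16 probe sets was checked for a single array far from the others, by its gap to the nearest array as a share of the range; chance flags about 1 in 20 such groups. Uchl1 read 29.0 in knockout H replicate 3, against 17.6 to 20.7 in the other 4 knockout H arrays. That array also had the highest smooth muscle mean of the knockouts (0.49); the part of smooth muscle in the value was not tested. The dim Tac1 probe set 1431883_at read 12.3 in knockout H replicate 5, a level under the filter on dim genes.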

How the results depend on the processing

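Vip was higher in knockouts than in controls under all 24 alternatives, with log2 differences of 1.05 to 1.73 and limma adjusted p-values of 0.00566 to 0.282. It missed the threshold with a pseudocount of 64 (1.05, limma adjusted p = 0.0529), without the 2 arrays highest in lung transcripts (knockout H replicates 2 and 5; 1.18, 0.0949; chosen after seeing the data), and without knockout H replicate 4, H replicate 5, L replicate 3, control replicate 1 or control replicate 2, with 1.19 to 1.63 over the arrays left out. The 588 genes past the threshold became 1366 with no covariates, 1222 with the letter only, 945 with the lung list as covariate, 1033 in the lower number range, and 0 (without control replicate 1) to 813 with 1 array left out. For knockout H against control the 331 became 155 with a pseudocount of 1, 878 with no covariates, 653 with the letter only, 558 with the lung list, and 0 to 433 with 1 array left out. For knockout L against control the 47 became 4 with a pseudocount of 1, 5 with no filter, 3 above the median, 11 over every probe set, 543 with no covariates, 173 with the number range only, 578 with the letter only, 15 with the smooth muscle list, 296 with the lung list, and 0 to 224 with 1 array left out. Between H and L the count stayed 0. The causes of these shifts were not tested.

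The sign of Nos1, Tac1 and Uchl1 depended on the setting. With no covariates and with the letter only, Nos1 was -0.041 and -0.035 in knockout against control, -0.041 and -0.022 in knockout H, and -0.042 and -0.052 in knockout L, where it was -0.059 with the smooth muscle list. Leaving out 1 array gave Nos1 -0.073 to 0.13, -0.077 to 0.13 and -0.11 to 0.12 in these comparisons, Tac1 -0.034 to 0.90, -0.073 to 1.14 and -0.50 to 0.71, and Uchl1 -0.47 to 0.0053, -0.47 to 0.0040 and -0.47 to 0.0064. For H against L, Nos1 was -0.0013 with a pseudocount of 1, -0.0024 with quantile normalization, -0.0059 with the number range only, -0.019 in the lower and -0.035 in the upper range, and -0.082 to 0.044 with 1 array left out. Uchl1 was 0.028 with no covariates, 0.036 with the number range only, 0.12 with the smooth muscle list and 0.031 in the upper range. Vip was 0.031 with the number range only, 0.21 in the upper range and -0.65 to 0.017 with 1 array left out, and Tac1 -0.23 to 0.43. Of 448 alternative values of the members 36 changed sign, 7 lost and 9 gained a call.

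Among the relations of Vip over the knockouts, that with Nos1 was -0.93 without the 2 farthest knockouts (adjusted exact permutation p = 0.125), -0.25, -0.43 and 0.48 with the other probe sets, and -0.98 to -0.96 with 1 knockout left out. Tac1 gave -0.48 without the 2 farthest, -0.28 with its other probe set and -0.39 to 0.33 with 1 left out, Uchl1 0.0063 with a pseudocount of 1 and -0.47 to 0.36 with 1 left out, Elavl4 0.14 without the 2 farthest, and S100b -0.17 centred within number range, -0.48 without the 2 farthest and -0.53 to 0.17 with 1 left out. With 1 left out Ret gave -0.87 to -0.39 and Chat -0.90 to -0.37. No paired analysis was possible because the titles give no replicate numbers shared between the groups. Precision is limited by 2 controls and by signals near background for 6 of the 8 genes.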

Other observations

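Among markers of other cells that can carry these transcripts, enteroendocrine cells gave 1 call in 17 genes tested, a share near the 4.31% called over all genes. Nts, neurotensin, fell (424 ± 80.9 in the 8 knockouts and 664 ± 147 in the 2 controls, SD; log2 difference -0.83, limma adjusted p = 0.0395), and 16 did not pass. Secretin, Sct, averaged 214 ± 48.9 in the knockouts and 449 ± 87.4 in the controls, a log2 difference of -0.99 (limma adjusted p = 0.0621). Cck (0.39) and Pyy (-0.40) had limma adjusted p-values of 0.12 and 0.252. The summed intensity of the list was 1910 to 2651 in the knockouts, and 2421 and 3162 in the controls.

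Kit, the receptor that marks interstitial cells of Cajal and mast cells, averaged 91.7 ± 23.2 in the knockouts and 48.0 ± 4.82 in the controls (SD), with 8 of 8 knockouts above both controls, as 21.8% of all genes were separated in either direction, and a log2 difference of 0.81 (limma adjusted p = 0.0877). Ano1, the chloride channel of interstitial cells, differed by 0.57 (limma adjusted p = 0.221). None of 4 genes of interstitial cells, 10 of mast cells, 10 of tuft cells (which contain Chat) or 18 of smooth muscle passed, with medians of 0.37, 0.11, 0.19 and -0.10. Over all genes 4.31% were called. The 15 lung epithelium genes tested had a median of 0.34 with none past the threshold, and 4 of 14 small intestine epithelium genes fell (median -0.33): the transcription factor Cdx2 (-0.85), the microvillus protein Vil1 (-0.51), the peptidase Anpep (-1.23) and the fatty acid carrier Fabp2 (-0.93). Their limma adjusted p-values were 0.0111 to 0.0215. Over all genes tested 2.79% were called lower. Of the 14 epithelium genes 10 had values below 0 and 4 above.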
